A study of Mus musculus with 12 samples.

Results

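The genes described here are the 7 mouse genes Foxo1, Klf2, S1pr1, Spns2, Coro1a, Cd69 and Itgb7, which are known for the late maturation of thymocytes and their exit from the thymus. They were chosen by name, and the value of each is the sum of the estimated counts of all transcripts that carry its symbol, 7 of 22843 genes in the table. The RNA was total RNA of whole thymus from male wild type C57BL/6 mice, at 2 weeks (2W), 6 weeks (6W) and 3 months (3M) of age, with no treatment. There were 2 biological replicates at each age and 6 libraries in all, so each comparison sets 2 libraries against 2. Whole thymus holds thymocytes of all stages with epithelium, vessels, fat and other cells, so that fewer cells of a type and less RNA per cell cannot be told apart.

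Thymocytes that survive selection move from the cortex to the medulla, mature there as single-positive cells and leave through vessels near the border of both zones. Foxo1 is a transcription factor that is held in the cytoplasm by Akt and, once in the nucleus, drives Klf2 and Il7r. Klf2 is a zinc-finger factor needed for the gene of the receptor S1pr1, which senses sphingosine-1-phosphate (S1P), the lipid that is high in blood and low in tissue. Spns2 exports S1P from endothelial cells, and Coro1a is an actin-binding coronin that thymocytes need to leave. Cd69 is a surface protein induced by T cell receptor signals that binds S1pr1 and takes it from the surface, and it is lost as cells become ready for exit. Itgb7 is the integrin chain beta 7, which pairs with alpha 4 (Itga4) or alpha E (Itgae) and is carried by maturing T cells.

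Promoter sequence shows the kind of site through which Klf factors act, the letters CACCC. RefSeq windows of the 250 bases before a listed start, in build GRCm38.p6, were at hand for 5 of the 7 genes. These were Foxo1, Coro1a, Klf2, Spns2 and Itgb7, with 6 windows since Coro1a has 2 listed starts. The windows of Itgb7, Spns2 and the second Coro1a start lie inside the span of their gene and precede an inner start. Itgb7, for example, spans 102215994 to 102233405. The window of Itgb7, the 1 gene of the 7 that passed the test between ages, is shown beside that of Klf2, the factor. Capitals mark CACCC or its other-strand form GGGTG, and these 2 forms share no bases with each other.
Itgb7, chr15:102231936-102232185, minus strand: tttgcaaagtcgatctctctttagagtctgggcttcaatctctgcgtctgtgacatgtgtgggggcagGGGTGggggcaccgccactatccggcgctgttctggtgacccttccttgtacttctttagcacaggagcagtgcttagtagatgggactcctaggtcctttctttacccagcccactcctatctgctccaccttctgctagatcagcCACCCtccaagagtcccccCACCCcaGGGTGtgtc
Klf2, chr8:72318812-72319061, plus strand: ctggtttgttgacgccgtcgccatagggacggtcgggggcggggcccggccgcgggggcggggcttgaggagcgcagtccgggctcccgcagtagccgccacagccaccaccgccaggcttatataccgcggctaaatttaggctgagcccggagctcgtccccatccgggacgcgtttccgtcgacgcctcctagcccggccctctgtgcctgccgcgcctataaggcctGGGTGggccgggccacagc
CACCC on either strand stood 4 times in the Itgb7 window, 1 time in the Klf2 window and 2 times in the window of the second Coro1a start, thus in 3 of 6 windows. Of all 32851 windows of this length, 52% held it at least 1 time, so its presence was common. The share of windows that held it several times was not counted. The forkhead letters GTAAACA, which can share bases with CACCC and were read on either strand with TGTTTAC, stood in 0 of 6 windows and in 3.17% of all windows. A match is a description of these letters and not a bound site.

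The libraries held 16519753 to 22553481 estimated counts, of which 0.699% to 1.20% had no gene symbol. Of 22843 genes, 14805 passed the filter on low counts and were tested, among them all 7 egress genes. Thymus markers were present in every library, with Rag1 at 7538 to 11172 normalised counts per 1000000 (CPM) and the epithelial factor Foxn1 at 13.8 to 28.1 CPM. A pair of libraries stood apart, since summed adipocyte markers reached 305 CPM in 3M replicate 1 (162 in 3M replicate 2) and summed red blood cell markers 1522 CPM in 3M replicate 2 (381 in 3M replicate 1).

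Levels of the 7 genes relative to each other were read per transcript length, as summed FPKM (fragments per kilobase of transcript per 1000000). Coro1a stood far above the others, at a mean of 433 FPKM over the 6 libraries (range 330 to 488). Next came Cd69 at 31.8 (24.1 to 38.2), Itgb7 at 19.3 (12.0 to 24.0) and Foxo1 at 14.9 (14.4 to 16.2). S1pr1 followed at 11.4 (9.10 to 12.7), Klf2 at 8.59 (6.87 to 10.5) and Spns2 was lowest at 1.02 (0.72 to 1.46). Neighbours in this order did not overlap in range, except Itgb7 with Foxo1 (Itgb7 higher in 5 of 6 libraries) and S1pr1 with Klf2 (S1pr1 higher in 6 of 6 libraries).

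The comparison of 6W with 2W covers the growth of the thymus after birth, that of 3M with 6W its first decline, and that of 3M with 2W the whole span. The last shares libraries with both others, and those share the 6W libraries. From 2W to 3M, Itgb7 rose 1.55-fold and was the 1 gene of the 7 past an adjusted p of 0.05, beside 11% of all genes tested (7.91% higher and 3.1% lower), and with Cd69 it had an unadjusted p under 0.05, as 27.3% of all genes had. Between 6W and 2W, 0 of 7 passed, where 1.74% of all genes did (1.47% higher and 0.263% lower), and 2 of 7 (Itgb7 and Cd69) had an unadjusted p under 0.05, where 18.9% of all genes had. Between 3M and 6W, 0 of 7 passed, where 0.00675% of all genes did (1 gene), and 0 of 7 had an unadjusted p under 0.05, where 14.3% of all genes had. With DESeq2 the counts of calls were 2 of 7 for 6W against 2W, 0 of 7 for 3M against 6W and 2 of 7 for 3M against 2W, where 872, 342 and 2200 of all 14805 genes were called. At the threshold the study used (unadjusted p under 0.05 with a log2 fold change beyond 1 in either direction), 0 of 7 were called in each comparison, where 5.36%, 2.11% and 9.35% of all genes were.

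Both 6W libraries lay above both 2W libraries for 4 of 7 genes (Klf2, S1pr1, Itgb7 and Cd69), where 28% of all genes did, and below them for 1 (Foxo1), where 29.8% did. Against 6W, both 3M libraries lay higher for 1 gene (Spns2), where 25.9% of all genes did, and lower for 2 (Cd69 and Coro1a), where 23.3% did. Against 2W, both 3M libraries lay higher for 3 genes (Itgb7, Cd69 and Spns2), where 27.7% of all genes did, and lower for Foxo1, where 24% did. The median log2 fold change of the 7 was 0.23 for 6W against 2W, -0.06 for 3M against 6W and 0.17 for 3M against 2W, beside -0.01, 0.02 and -0.03 over all genes tested.

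**Figure D1:**
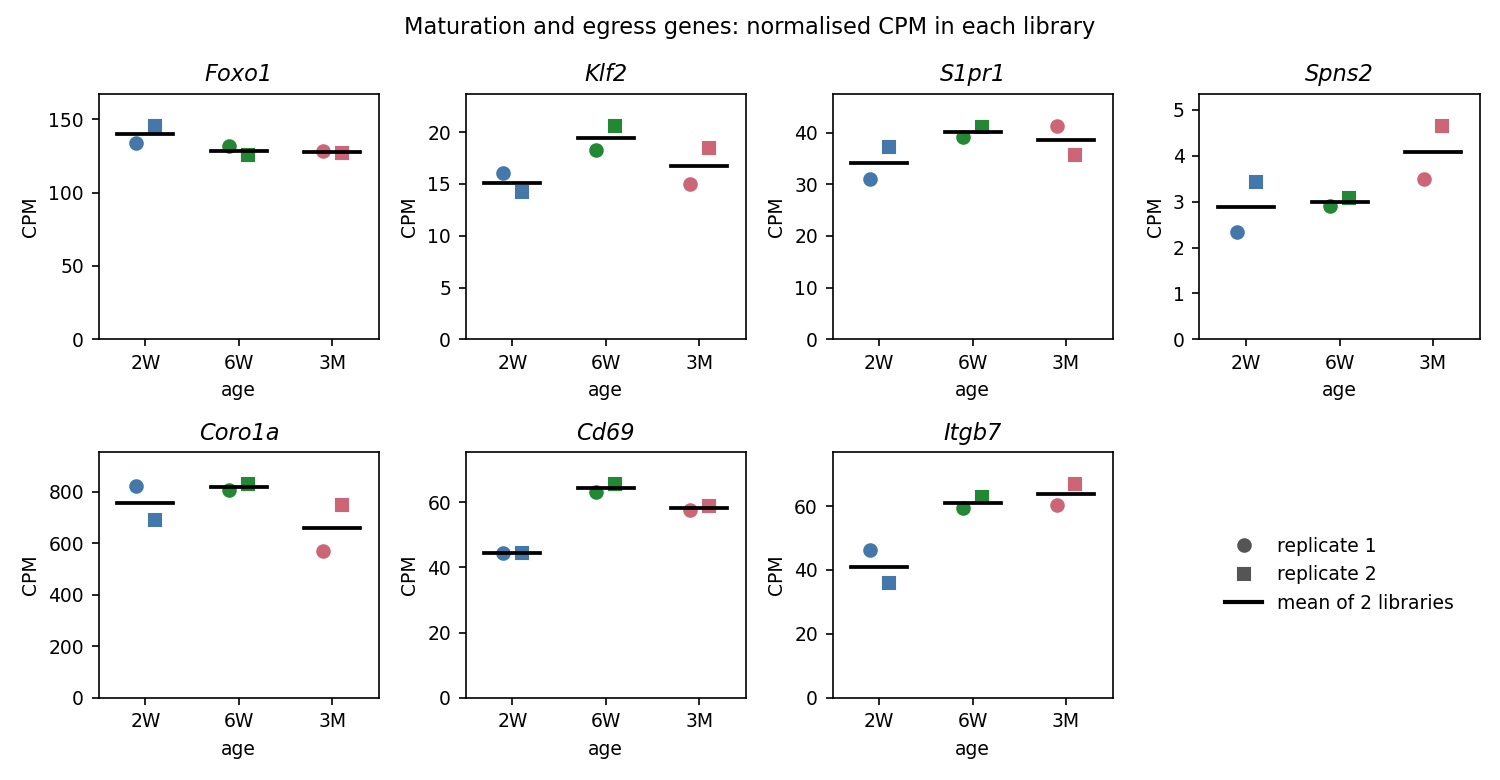
Normalised counts per 1000000 (CPM, vertical axes from 0) of the 7 genes in each of the 6 libraries by age, with circles for replicate 1, squares for replicate 2 and a bar for the mean of both libraries. Itgb7 and Cd69 lie higher in all 4 libraries of 6W and 3M than in both of 2W, while Foxo1 stays between 126 and 146 CPM.

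Foxo1, at the head of the chain, had the smallest spread of the 7 over the 6 libraries (root mean square deviation 0.07 on the log2 scale). It was at 134 and 146 CPM at 2W (139.6 ± 8.58, SD, n = 2), at 132 and 126 at 6W (129 ± 4.21) and at 128 and 127 at 3M (128 ± 1.08). Both 2W libraries were the highest, and the 6W and 3M libraries overlapped. The log2 fold change was -0.12 for 6W against 2W (SE 0.11, 95% interval -0.37 to 0.13, adjusted p = 0.569) and -0.13 for 3M against 2W (SE 0.11, -0.38 to 0.12, adjusted p = 0.476). These values depend on which transcripts are summed: with annotated transcripts only, Foxo1 was at a log2 fold change of 0.18 for 3M against 2W and 0.19 for 3M against 6W, in place of -0.13 and -0.01, and at -0.01 for 6W against 2W in place of -0.12. Scaled by total counts only, the values for 6W and for 3M against 2W were -0.05 and -0.06, and with limma on FPKM -0.04 and -0.08. They also depend on the 2W libraries, since the values for 6W and for 3M against 2W were -0.03 and -0.06 without 2W replicate 2, and -0.18 and -0.19 without 2W replicate 1.

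Klf2 was highest at 6W. It was at 16.1 and 14.2 CPM at 2W (15.1 ± 1.30, n = 2), at 18.3 and 20.6 at 6W (19.5 ± 1.68) and at 15.0 and 18.4 at 3M (16.7 ± 2.46). Both 6W libraries were above both 2W libraries, while 3M replicate 1 lay within the 2W range and 3M replicate 2 within the 6W range. For 6W against 2W the log2 fold change was 0.36 (SE 0.16, 95% interval -0.02 to 0.75, adjusted p = 0.290), so that a fold between 0.984 and 1.68 was within the interval. It was -0.22 for 3M against 6W (adjusted p = 0.558) and 0.15 for 3M against 2W (adjusted p = 0.614), and none passed the test. Without 3M replicate 1 these values were -0.07 and 0.31, and without 3M replicate 2 they were -0.43 and -0.05. The value for 3M against 2W ran from 0.07 (without 2W replicate 2) to 0.23 (without 2W replicate 1) when a 2W library was left out, and that for 3M against 6W was -0.13 without 6W replicate 2.

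S1pr1, the receptor, was at 31.1 and 37.3 CPM at 2W (34.2 ± 4.36, n = 2), at 39.1 and 41.2 at 6W (40.1 ± 1.46) and at 41.4 and 35.7 at 3M (38.5 ± 3.98). The highest 2W library was below both 6W libraries and above the lower 3M library. Its log2 fold change was 0.23 for 6W against 2W (SE 0.14, 95% interval -0.10 to 0.56, adjusted p = 0.400), -0.06 for 3M against 6W (adjusted p = 0.874) and 0.17 for 3M against 2W (adjusted p = 0.475). None of the 3 passed the test. With 1 library left out, the value for 6W against 2W ran from 0.11 (without 2W replicate 1) to 0.39 (without 2W replicate 2), and that for 3M against 2W from 0.05 to 0.31 without the same libraries. The value for 3M against 6W ran from -0.16 (without 3M replicate 1) to -0.01 (without 3M replicate 2).

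Spns2, the S1P exporter, had the fewest counts, 37 to 104 a library. It was at 2.34 and 3.43 CPM at 2W (2.88 ± 0.773, n = 2), at 2.91 and 3.09 at 6W (3.00 ± 0.128) and at 3.49 and 4.66 at 3M (4.07 ± 0.827). Both 3M libraries were the highest, and the 6W libraries lay between those of 2W. The log2 fold change for 3M against 2W was 0.50 (SE 0.30, 95% interval -0.23 to 1.23, adjusted p = 0.344), an interval that runs from 0.853-fold to 2.34-fold. With 1 library left out it ran from 0.24 (without 3M replicate 2) to 0.81 (without 2W replicate 2), with 0.25 without 2W replicate 1 and 0.71 without 3M replicate 1. The value of 0.44 for 3M against 6W (adjusted p = 0.521) became 0.64 without 3M replicate 1 and 0.16 when 3M replicate 2 was left out, and 0.84 with annotated transcripts only (adjusted p = 0.819). For 6W against 2W it was 0.05 (adjusted p = 0.938) and became -0.19 without 2W replicate 1 and 0.38 without 2W replicate 2. Of 12 markers of endothelial cells, in which Spns2 acts, 1 rose from 2W to 3M (Flt1, log2 fold change 1.25, adjusted p = 0.0079) and 0 fell, where 7.91% and 3.1% of all genes did, with a median of 0.01 and none at 0 in any library. Their sum, at 316 to 318 CPM at 2W, 297 to 310 at 6W and 286 to 292 at 3M, was led by Pecam1 (178 and 179.7 CPM at 2W, 136 and 147 at 3M), and the part of these markers in the Spns2 values was not tested.

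Coro1a, the most abundant of the 7, differed between the replicates at 2W and at 3M. It was at 823 and 691 CPM at 2W (757 ± 93.9, n = 2), at 806 and 829 at 6W (817 ± 16.6) and at 570.0 and 747 at 3M (658 ± 125). The 6W libraries lay above both 3M libraries and overlapped those of 2W, and 3M replicate 1 was the lowest of all. The log2 fold change was -0.31 for 3M against 6W (SE 0.15, 95% interval -0.68 to 0.06, adjusted p = 0.406) and -0.20 for 3M against 2W (adjusted p = 0.454). Without 3M replicate 1, the library with the highest adipocyte markers, these values were -0.12 and 0.01, and without 3M replicate 2 they were -0.57 and -0.44, and none passed the test. Without 2W replicate 1 or 2W replicate 2, the value for 3M against 2W was -0.07 or -0.31.

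Cd69 had a small spread between replicates at every age. At 2W it had 44.6 and 44.5 CPM (44.5 ± 0.045, n = 2), at 6W 63.2 and 65.5 (64.4 ± 1.65) and at 3M 57.5 and 58.7 (58.1 ± 0.901). No ages overlapped: both 6W libraries were highest, both 3M libraries lay between, and both 2W libraries were lowest. The log2 fold change was 0.53 for 6W against 2W (SE 0.10, 95% interval 0.29 to 0.77, 1.45-fold, adjusted p = 0.059), 0.38 for 3M against 2W (SE 0.10, 0.14 to 0.62, 1.31-fold, adjusted p = 0.058) and -0.15 for 3M against 6W (adjusted p = 0.517). The first value passed in 6 of 14 alternatives (adjusted p from 0.0030 to 0.420), among them those without 3M replicate 1 (0.039) and without 3M replicate 2 (0.039). The value for 3M against 2W passed in 3 of 14 (0.029 to 0.204), and all alternatives kept both directions.

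Itgb7 was lowest at 2W. The 2W libraries had 46.2 and 35.9 CPM (41.1 ± 7.27, n = 2), those of 6W 59.3 and 62.7 (61.0 ± 2.42) and those of 3M 60.4 and 66.9 (63.6 ± 4.58). Both 2W libraries were below the other 4, and the 6W and 3M libraries overlapped. Itgb7 rose from 2W to 3M by a log2 fold change of 0.63 (SE 0.15, 95% interval 0.28 to 0.99, 1.55-fold, adjusted p = 0.042). For 6W against 2W it was at 0.57 (SE 0.15, 0.22 to 0.92, 1.49-fold, adjusted p = 0.12), and for 3M against 6W at 0.06 (SE 0.15, -0.29 to 0.41, adjusted p = 0.877). The call for 3M against 2W was kept in 5 of 14 alternatives, all with the same direction (adjusted p from 0.0057 to 0.179). It was lost without 2W replicate 1 (0.063), 2W replicate 2 (0.179), 6W replicate 1 (0.110), 6W replicate 2 (0.108) or 3M replicate 2 (0.110), and was kept without 3M replicate 1 (0.042).

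**Figure D2:**
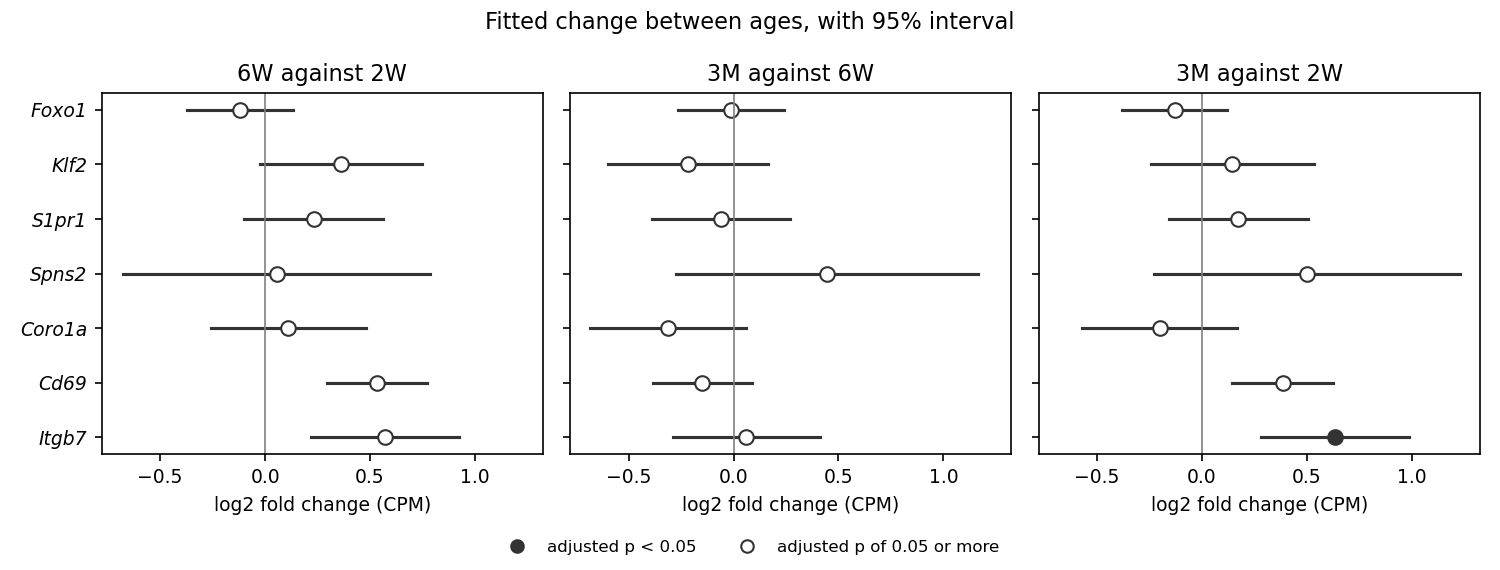
Fitted log2 fold changes of the 7 genes (horizontal axes) in the 3 comparisons, with lines for the 95% intervals and filled points for an adjusted p under 0.05. The 1 filled point is Itgb7 for 3M against 2W at 0.63, and the Spns2 intervals are the widest.

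Of the partners and ligands of Itgb7, the partner Itgae and the ligands Cdh1 and Vcam1 rose with age, and the partner Itga4 and the ligand Madcam1 passed in no comparison. Of 11 integrin genes and ligands tested, 2 rose between 2W and 6W and 4 between 2W and 3M, where 1.47% and 7.91% of all genes rose. None passed as lower, and the list had a median of 0.32 and 0.17 on the log2 scale, beside -0.01 and -0.03 for all genes. Itgae, the alpha E partner, was at 20.3 and 16.1 CPM at 2W, 42.3 and 45.6 at 6W and 39.8 and 41.7 at 3M, so that both 2W libraries were below the other 4. It rose by 1.27 on the log2 scale at 6W (SE 0.14, adjusted p = 0.023) and by 1.16 at 3M against 2W (SE 0.14, adjusted p = 0.0086). Cdh1, the E-cadherin to which the alpha E beta 7 pair binds, rose by 0.92 from 2W to 3M (SE 0.15, adjusted p = 0.017), from 54.6 and 48.7 CPM to 84.6 and 111. Vcam1, a ligand of integrins with alpha 4, rose by 0.74 at 6W (SE 0.12, adjusted p = 0.043) and by 0.78 at 3M (SE 0.12, adjusted p = 0.014) against 2W. Icam1, a ligand of the leukocyte integrin with beta 2, rose by 0.60 from 2W to 3M (SE 0.14, adjusted p = 0.042). Itga4, the other partner and named for that role though it did not pass, was at 233 and 283 CPM at 2W, 312 and 257 at 6W and 307 and 246 at 3M, with all ages overlapping. Madcam1, the gut ligand of alpha 4 beta 7, stayed at or below 1.46 CPM in every library.

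**Figure D3:**
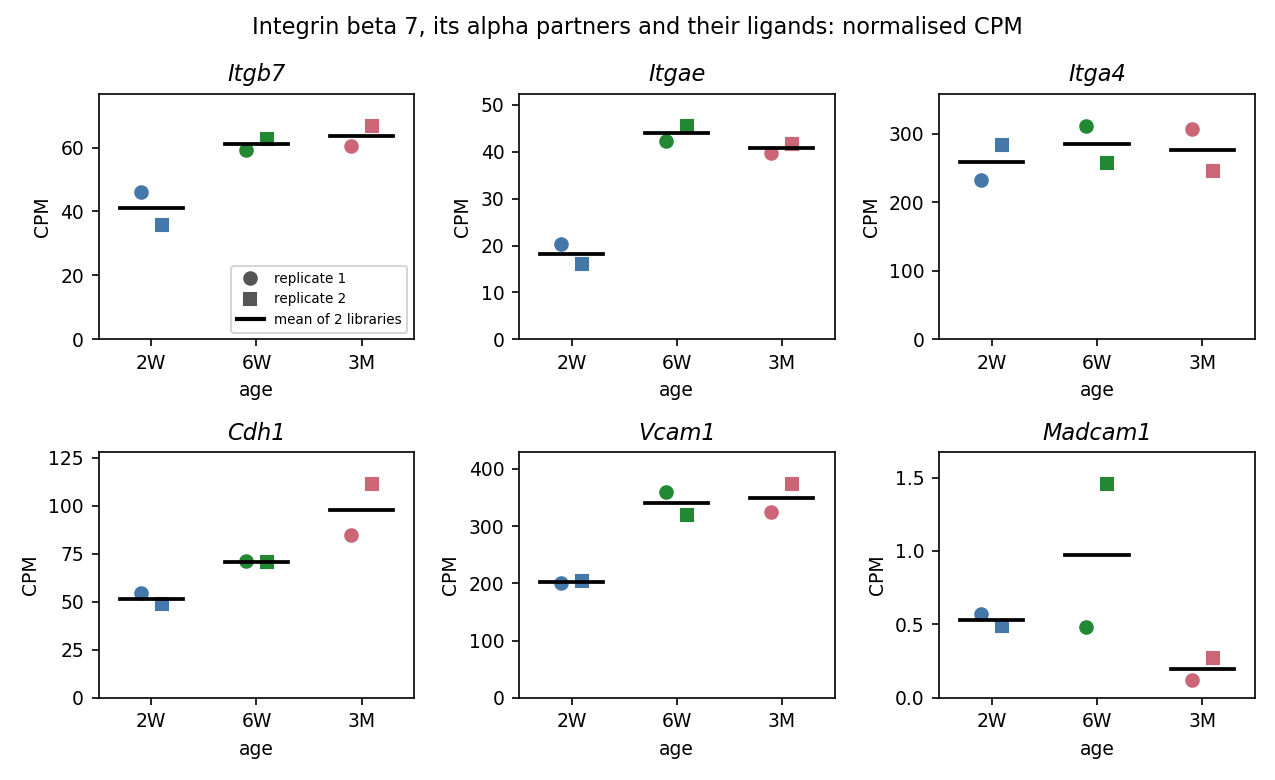
Normalised CPM (vertical axes from 0) of Itgb7, its alpha partners Itgae and Itga4 and the ligands Cdh1, Vcam1 and Madcam1 in each library by age, with circles for replicate 1, squares for replicate 2 and bars for means. Itgb7, Itgae and Vcam1 are higher in all 4 libraries of 6W and 3M than at 2W, whereas the Itga4 libraries of all ages overlap.

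Genes carried by mature single-positive thymocytes, the cells that leave, included several that rose. Of 19 tested, 3 passed as higher at 6W than at 2W and 6 as higher at 3M than at 2W, and 0 passed as lower, where 1.47% and 7.91% of all genes rose. Both 6W libraries lay above both 2W libraries for 14 of 19 and below for 0, where 28% and 29.8% of all genes did. Both 3M libraries lay above them for 13 of 19 and below for 1 (Dapl1), where 27.7% and 24% of all genes did. The median log2 fold change was 0.42 at 6W and 0.43 at 3M against 2W. Ly6c2, a surface protein of T cell subsets, rose from 10.1 and 9.38 CPM at 2W to 21.9 and 19.7 at 6W (log2 fold change 1.09, SE 0.13, adjusted p = 0.025), and was at 32.8 and 32.5 at 3M (1.74 against 2W, SE 0.13, adjusted p = 0.0043). Gimap3, a GTPase of lymphocyte survival, rose by 0.91 at 6W (SE 0.12, adjusted p = 0.028) and by 1.25 at 3M (SE 0.12, adjusted p = 0.0056). Slfn1 rose by 0.70 and 0.72 (SE 0.11 each, adjusted p = 0.041 and 0.014), and Ripor2 rose by 0.70 from 2W to 3M (SE 0.10, adjusted p = 0.013). The summed level of these 19 genes was 1085 to 1123 CPM at 2W, 1371 to 1381 at 6W and 1422 to 1433 at 3M. That of 10 markers of double-positive thymocytes was 16401 to 18391, 15075 to 15124 and 12945 to 13430 CPM. This sum was led by Rag1, at means of 10285.5, 8209 and 7625 CPM. Of the 10 markers, 0 passed for 6W against 2W. Both 6W libraries lay below both 2W libraries for 7 and above for 2, where 29.8% and 28% of all genes did.

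Other Foxo and Klf factors, kinases upstream of them and targets in naive T cells gave 2 calls among 15 genes tested, both higher at 3M than at 2W, where 7.91% of all genes were. Il7r, the interleukin 7 receptor chain that Foxo1 drives, was at 34.4 and 38.5 CPM at 2W, 70.3 and 55.3 at 6W and 85.2 and 71.3 at 3M. It rose by 1.10 from 2W to 3M (SE 0.16, adjusted p = 0.013). Klf4, a quiescence factor of T cells that myeloid and stromal cells also use, rose by 1.46 over the same span (SE 0.25, adjusted p = 0.018), from 2.91 and 3.92 CPM to 9.20 and 9.63. The median of the 15 was -0.02 for 3M against 2W, near that of all genes, and 0.01 for 6W against 2W.

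Among 15 tested genes of S1P metabolism, transport and reception, 2 rose from 2W to 3M, where 7.91% of all genes did, and 0 passed in either other comparison (median log2 fold change 0.25 for 3M against 2W). Sgpl1, the lyase that degrades S1P in tissue, had 312 and 310.2 CPM at 2W, 356 and 336 at 6W, and 409 and 418 at 3M, with no overlap between ages. From 2W to 3M it rose by 0.41 on the log2 scale (SE 0.09, adjusted p = 0.041). Plpp3, a phosphatase that removes S1P outside cells, rose by 0.81 (SE 0.13, adjusted p = 0.015), from 18.1 and 17.9 CPM to 28.9 and 34.2. S1pr5 was below the filter, with 0 to 4 counts a library.

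Coronins, Mst kinases and actin regulators around Coro1a gave 1 higher and 1 lower call among 20 genes for 3M against 2W, where 11% of all genes were called (7.91% higher and 3.1% lower), and 0 in the other comparisons (median -0.07 for 3M against 2W). Coro2b fell by 1.22 on the log2 scale from 2W to 3M (SE 0.17, adjusted p = 0.011), from 16.2 and 13.7 CPM to 6.07 and 6.72. Coro2a rose by 0.78 (SE 0.17, adjusted p = 0.036), from 14.0 and 15.6 CPM to 22.7 and 28.03. Both were at far lower levels in CPM than Coro1a, at 28.03 or less in every library.

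Genes of positive selection and T cell receptor signals, the class in which Cd69 is induced, gave 1 call among 15, where 11% of all genes were called for 3M against 2W. Ccr9, the chemokine receptor of thymocytes and gut-homing T cells, was at 669 and 695 CPM at 2W, 535 and 553 at 6W and 498 and 469 at 3M. It fell by 0.50 from 2W to 3M (SE 0.09, adjusted p = 0.023). Of 9 signals of the exit niche, 1 rose, where 7.91% of all genes did. Cxcl12, the chemokine bound by Cxcr4, rose by 0.75 from 2W to 3M (SE 0.15, adjusted p = 0.025), from 129 and 152 CPM to 260.2 and 213. The medians of both lists for 3M against 2W were 0.03 and 0.11.

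**Figure D4:**
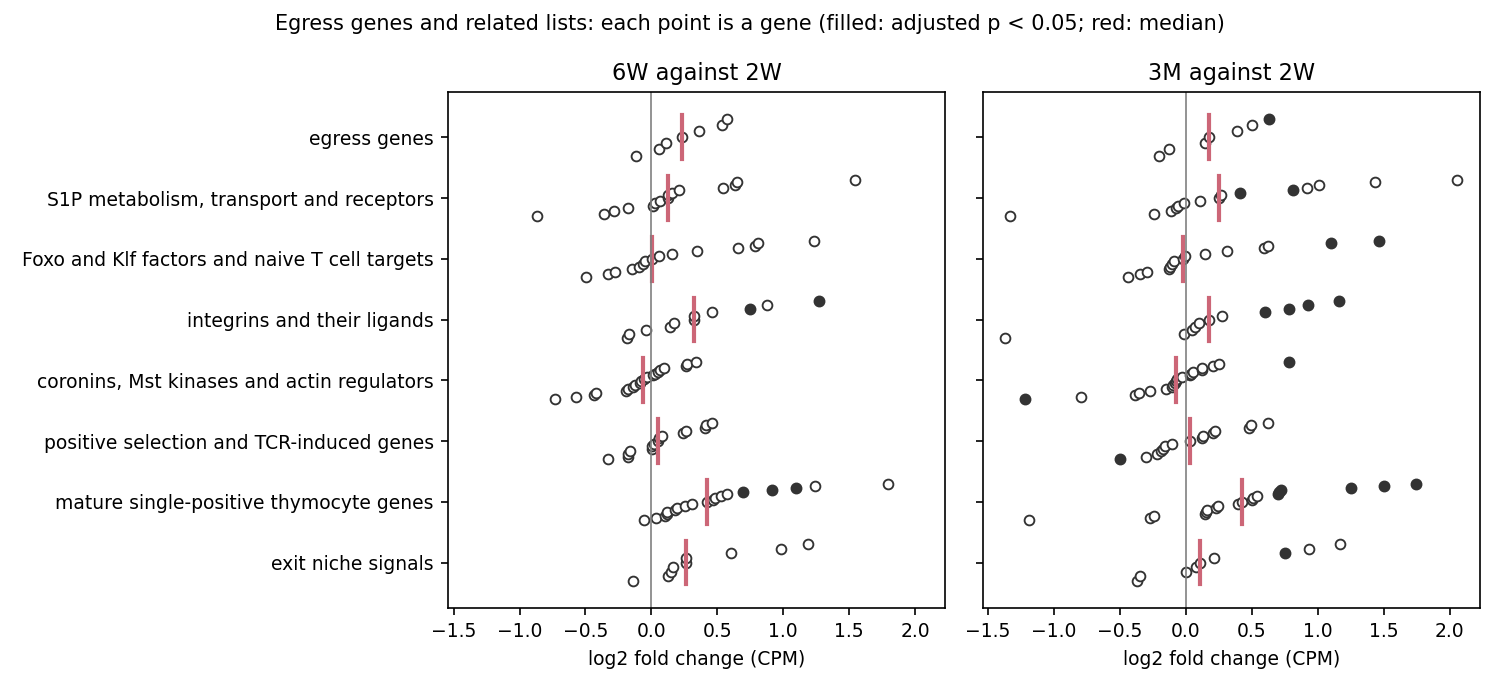
Log2 fold changes (horizontal axes) of the 7 egress genes and of the genes of 7 related lists for 6W against 2W and 3M against 2W, 1 point a gene, with filled points for an adjusted p under 0.05 and a red bar for the median. The largest list medians are those of the mature single-positive thymocyte genes, at 0.42 and 0.43.

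Leaving out single libraries or fitting the values another way changed many of these calls. All named calls for 6W against 2W (Itgae, Vcam1, Ly6c2, Gimap3 and Slfn1) were lost without any 1 of the 4 libraries of these ages and with annotated transcripts only, Vcam1 and Slfn1 also with exact symbols. They were kept without either 3M library, and the adjusted p reached 0.382 (Vcam1). For 3M against 2W, Itgae, Ly6c2 and Gimap3 kept the call in 14 of 14 alternatives. Coro2b lost it without 2W replicate 1 and with annotated transcripts only (0.21), and Il7r, Klf4 and Vcam1 lost it without either 2W library. Sgpl1, Icam1 and Coro2a also lost it with annotated transcripts only, Sgpl1 with no filter, Icam1 with exact symbols and Ccr9 with limma. With the 4 libraries compared alone in the fit, 8 genes lost it (Plpp3, Ripor2, Slfn1, Ccr9, Cxcl12, Sgpl1, Icam1 and Coro2a). Plpp3, Cdh1, Ccr9, Ripor2, Slfn1 and Cxcl12 lost it without any 1 of the 2W or 6W libraries, and Sgpl1, Icam1 and Coro2a also without 3M replicate 2, with adjusted p up to 0.187 in fits without 1 library.

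Markers of other cell types moved with age beside these genes, and their part in the results was not tested. From 2W to 3M, 6 of 8 myeloid, 5 of 6 adipocyte and 3 of 6 tested innate lymphoid and cytotoxic markers rose, 5 of 10 double-positive thymocyte markers fell and 1 of 12 endothelial markers (Flt1) rose, where 7.91% of all genes rose and 3.1% fell. Of thymic epithelium markers 1 of 8 rose (Prss16) and 1 fell (Foxn1), and of fibroblast and pericyte markers 2 of 7 rose and 2 fell. B cell markers (0 of 7) and red blood cell markers (0 of 4 tested) gave no call. Summed myeloid markers were at 324 to 369 CPM at 2W, 686 to 735 at 6W and 749 to 779 at 3M, and summed adipocyte markers at 39.4 to 39.6, 135 to 142 and 162 to 305 CPM. Innate lymphoid and cytotoxic markers, whose cells can carry Itgb7, Itgae and Klf2, summed to 67.2 to 72.6, 80.1 to 87.3 and 109 to 120 CPM, and B cell markers to 51.0 to 54.5, 71.9 to 83.8 and 55.6 to 68.6 CPM. None of the markers in the table was at 0 in any library.

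Transcripts show how much of each sum comes from annotated models (Ensembl names) and how much from models assembled from reads (TCONS names). Klf2 (ENSMUST00000067912) and S1pr1 (ENSMUST00000055676) had 1 transcript each. Itgb7 was carried by ENSMUST00000001327 (98.8% of its counts) and Cd69 by ENSMUST00000032259 (98.2%). Foxo1 was divided between ENSMUST00000053764 (57.4%) and the assembled TCONS_00074247 (42.6%), and the annotated share was 61.3% and 66.3% at 3M, above the 44.4% to 59.7% of the other 4 libraries. Coro1a was divided between ENSMUST00000032949 (76.8%) and TCONS_00113186 (18.7%), the latter at 6.80% in 6W replicate 2 and 32.4% in 3M replicate 1. Spns2 was mostly the assembled TCONS_00020758 (60.9%), and its annotated transcript ENSMUST00000045303 was listed at 0 in 2W replicate 1 and held 63.4% in 2W replicate 2. Of 35036 transcripts tested, 0 passed an adjusted p of 0.05 in any comparison with edgeR, while 2685, 2417 and 3860 had an unadjusted p under 0.05 and DESeq2 called 902, 614 and 1893 for 6W against 2W, 3M against 6W and 3M against 2W. The annotated transcripts of Itgb7 and Cd69 had log2 fold changes of 0.70 (SE 0.17) and 0.41 (SE 0.10) for 3M against 2W, close to the gene sums.

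**Figure D5:**
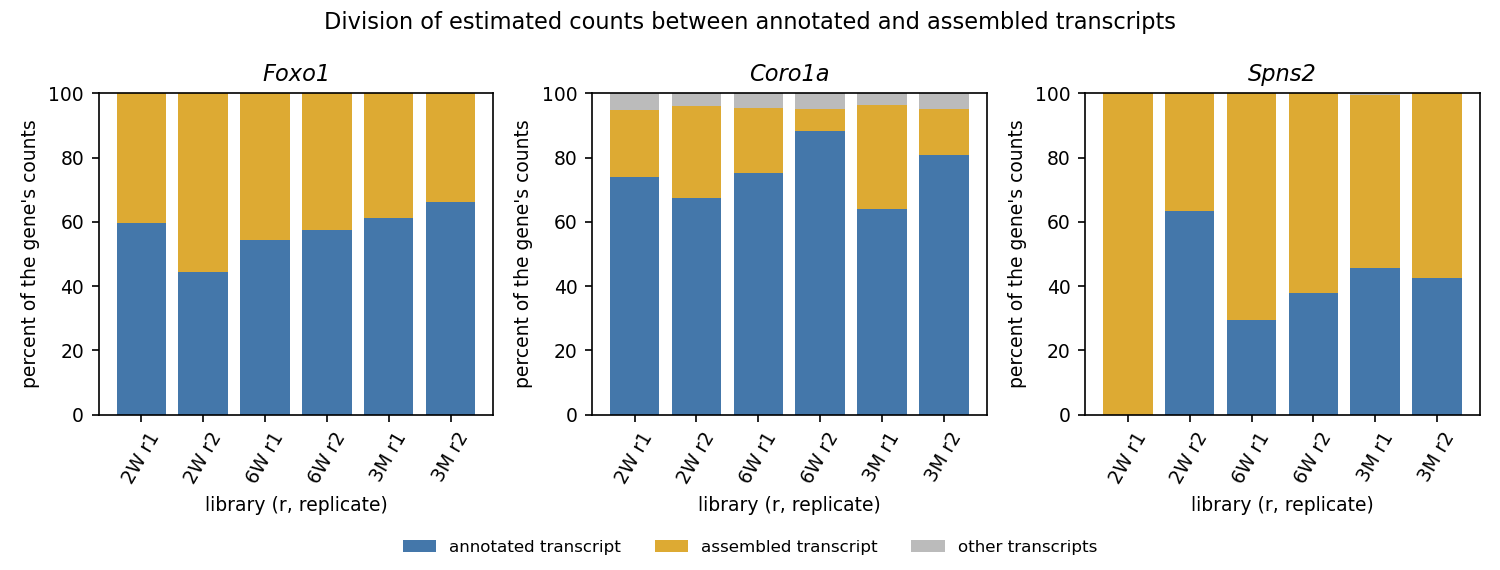
Percent of the estimated counts of Foxo1, Coro1a and Spns2 (vertical axes, 0 to 100) that fell to the main annotated transcript, the main assembled transcript and all others, in each of the 6 libraries. The Spns2 bars of 2W replicate 1 and 2W replicate 2 differ most, with the annotated transcript at 0% and 63.4%.

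The genes with the most similar course were found among genes with a mean of at least 10 CPM, by the root mean square difference of log2 CPM, centred on each gene's mean, over the 6 libraries (9432 genes for each of the 7 but Spns2, for which 9433). Itgb7 was nearest to Adam8 (0.05), Sesn2 (0.06) and Tagap (0.06), against a spread of its own of 0.31. Cd69 was nearest to Zc3h12d (0.04), Slfn2 (0.04) and Timp2 (0.04), and Klf2 to Gpr108 (0.03), Nfkbia (0.04) and Il27ra (0.05). S1pr1 was nearest to A430005L14Rik (0.03), Ebp (0.05) and Oxnad1 (0.05), Foxo1 to Kctd20 (0.01), Becn1 (0.02) and Pabpc1 (0.02), and Coro1a to Pip5k1c, Adprh and Abhd16a (0.02, 0.02 and 0.03). Spns2 had the least similar neighbours, Fam220a (0.09), Sdc4 (0.11) and Sgsm2 (0.11). Among the 7, Klf2 and Cd69 were the nearest pair (0.14), and Coro1a and Spns2 the farthest (0.42). Every value rests on 6 points that share library depth and normalisation.

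Circular RNAs, known from reads across a back-spliced junction, were listed for 1 of the 7 genes. Foxo1 had 2 of the 6300 in that table, which share a start on chromosome 3. The shorter, novel_circ_003788, spans 52345039 to 52346390 on the plus strand as 1 exon of 1352 nt. It had 13 and 2 counts at 2W, 15 and 11 at 6W and 4 and 6 at 3M. In RPM (junction counts per 1000000 of the library) these were 1219 and 179.9, 800.4 and 502, and 360 and 389.7, so that 6W lay above 3M and the 2W replicates were the highest and the lowest of the 6 libraries. The longer, novel_circ_003789, ends at 52348247, joins annotated exons over 2604 nt and had 0 and 0, 3 and 2, and 2 and 2 counts. Library totals were 10663 to 21914 junction counts, and a count of 0 in the 2W libraries allows up to 281 and 269.9 RPM, for counting error only, which is above the 91.3 to 179.8 RPM at the other ages. Coordinates are as deposited, and of 6010 circRNAs with a placed source gene 98.8% lay inside that gene in GRCm38.p6.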

How the data were processed

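Total RNA of thymus was sequenced by the authors after removal of ribosomal RNA, per the paper's methods. Each mRNA transcript has estimated counts and FPKM, both deposited by the authors, and 84.1% of non-zero estimated counts were not whole. For circRNAs the authors deposited whole junction counts and RPM. The program and build behind these tables are not given in the sources used here; the submitters' processing notes list Bowtie 0.12.2 and mm8 without a role. Gene sums joined symbols that differ only in case (665 genes). Sums were rounded, filtered with filterByExpr by age and tested over all 6 libraries in R 4.3.3 with edgeR 4.0.16 (TMM, quasi-likelihood F test, prior count 0.125), with p-values adjusted by the Benjamini-Hochberg method over 14805 genes in each of 3 comparisons. CPM uses the TMM-scaled library size. Standard errors came from the fold change and the F statistic, and intervals are at 95%. An exact permutation test of 2 against 2 libraries cannot go below p = 0.333, so none was used. Alternatives were DESeq2 1.42.0, scaling by total counts only, no filter, the 4 libraries compared, a replicate block, exact symbols, annotated transcripts only, limma 3.58.1 on log2(FPKM + 0.1) and each library left out in turn. The script was tested on simulated data. The lncRNA and miRNA tables were not used. The genes and lists were chosen with earlier results of these data known. Named are all 7 genes, up to 4 called genes a list by smallest p (otherwise the 2 most abundant), the 3 nearest genes by course, and transcripts with at least 10% of a gene's counts. Outside this rule, Itga4, Madcam1, S1pr5, Pecam1, Dapl1 and the thymus marker Rag1 were named for their role or to qualify a count, after their values were seen.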

Additional observations from a re-analysis of the deposited data

Results flagged for a closer look

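The circRNA novel_circ_003788 from Foxo1 was found outside the mRNA comparisons, in the junction counts, with 51 counts over the 6 libraries. It had a count in 6 of 6 libraries, from 2 to 15, and was not tested between ages.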

How the results depend on the processing

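Of 294 values of the 7 genes under the alternatives, 267 kept their direction and their side of the threshold, 9 lost the call (all Itgb7, 3M against 2W), 10 gained one (Cd69 and Itgb7) and 8 changed sign, all of uncalled values. On the log2 scale, changes of sign with annotated transcripts only were Spns2 for 6W against 2W (-0.15) and Foxo1 for 3M against 6W (0.19) and 3M against 2W (0.18). With 1 library left out, values ran from -0.19 (without 2W replicate 1) to 0.38 for Spns2 at 6W against 2W, from -0.067 (without 3M replicate 2) to 0.14 for Itgb7 and -0.057 to 0.020 (without 6W replicate 1) for Foxo1 at 3M against 6W, and from -0.049 (without 3M replicate 2) to 0.31 for Klf2 and -0.44 to 0.0069 (without 3M replicate 1) for Coro1a at 3M against 2W. For 3M against 2W with total counts only, Klf2 moved from 0.15 to 0.22 and Coro1a from -0.20 to -0.13. The causes were not tested.

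Of the 7 genes, 0 were called for 6W against 2W, but 2 with DESeq2, 1 each with total counts only, the 4 libraries compared or limma, and 0 to 1 with 1 library left out. For 3M against 2W, 1 was called, but 2 with DESeq2, total counts only or limma, 0 with the 4 libraries compared, exact symbols or annotated transcripts only, and 0 to 1 with 1 library left out. For 3M against 6W, 0 were called under every alternative. Over all genes, 257 were called for 6W against 2W, but 872 with DESeq2 (625 higher and 247 lower, beside 218 and 39), 394 with total counts only, 467 with no filter, 662 with the 4 libraries compared, 124 with exact symbols, 4 with annotated transcripts only, 402 with limma and 0 to 658 with 1 library left out. For 3M against 6W, 1 was called, but 342 with DESeq2, 19 with no filter, 0 with the 4 libraries compared, exact symbols, annotated transcripts only or limma, and 0 to 11 with 1 library left out. For 3M against 2W, 1630 were called (2200 with DESeq2, 1788 with total counts only and 1603 with limma), but 663 with the 4 libraries compared, 922 with annotated transcripts only and 239 to 1741 with 1 library left out. Of transcripts, 0 were called in each comparison, but 902, 614 and 1893 with DESeq2, and 4 for 3M against 2W with no filter. A fit without 1 library leaves 1 at that age, which is assumed to vary like the others.

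The labels do not say whether libraries with the same replicate number belong together. Deviations of libraries with the same number correlated at -0.13 (2W and 6W), -0.33 (2W and 3M) and 0.35 (6W and 3M) over 14805 genes. Each value comes from a single pair of ages with 2 libraries each, so it cannot decide whether such libraries share a batch. With the replicate number as a block, 5 genes were called for 6W against 2W, 0 for 3M against 6W and 742 for 3M against 2W, and of the 7 genes 0, 0 and 0, with Itgb7 at an adjusted p of 0.097 for 3M against 2W. Of the genes named from lists, the block lost all 5 calls for 6W against 2W and those of Sgpl1, Icam1, Coro2a, Ccr9 and Cxcl12 for 3M against 2W. With 2 libraries an age, the intervals set the limit: for Spns2, with at most 104 counts, a change of 3M against 2W up to 2.34-fold stayed within its interval.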
